A study of Mus musculus with 24 samples.

Results

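The account covers how far the loss of both hepatocyte JNK isoforms departs from the summed losses of each isoform in livers of mice on a high fat diet. It rests on 12 of the 24 liver RNA libraries of the series, chosen by their labelled diet: 3 control, 3 Jnk1, 3 Jnk2 and 3 Jnk1Jnk2 libraries. All mice were C57BL/6J and carried the Alb-Cre transgene, whose albumin promoter drives recombination in hepatocytes. The control group carried Alb-Cre alone, the Jnk1 group also had Jnk1 flox/flox alleles (Mapk8), the Jnk2 group Jnk2 flox/flox alleles (Mapk9) and the Jnk1Jnk2 group both. The diet lasted 16 weeks, and the other 12 libraries came from the same genotypes on chow. The mice's age was not given in the sources used here. Whether replicates were separate mice is not stated either, so the error behind each p-value is that between libraries and may be technical.

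JNK1 and JNK2 are closely related stress-activated kinases that sit at the end of a kinase cascade and phosphorylate Jun, a subunit of the AP-1 transcription factor. They are present in most liver cells, and in hepatocytes JNK signalling is known to restrain fatty acid oxidation driven by the nuclear receptor PPARα and the release of its target hormone Fgf21. Kinases that can stand in for each other are commonly studied by comparing the loss of both with the loss of either one.

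The measure used throughout is the departure from additivity. It is the Jnk1Jnk2 difference from control, minus the Jnk1 difference, minus the Jnk2 difference, on the log2(FPKM + 1) scale, where FPKM is the fragment count scaled by transcript length and library size. A positive departure means that the Jnk1Jnk2 livers lay above the sum of the single differences, and a negative one that they lay below it. A negative departure can therefore come from a gene that was low in the double livers only, or from a gene that was high in both single groups and not higher in the double. Departures were tested with limma over 10562 loci with a mean of at least 1 FPKM, and a locus is called here where the Benjamini-Hochberg adjusted p is under 0.05. Differences of each genotype from control stand beside the departures with no call of their own, since all 3 share the control libraries.

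The Jnk1Jnk2 libraries stand apart from the other 9 in a technical measure that touches every result. Across loci, Spearman's correlation of a library's deviation with transcript length was -0.605, -0.660 and -0.598 in the 3 Jnk1Jnk2 libraries, and between -0.251 and 0.420 in the other 21 libraries of the series. Their FPKM sums, 849038, 873399 and 852069, were also above those of the other 21 libraries, which lay between 634849 and 734352. The trend and the loss of both isoforms on high fat cannot be told apart, so departures are given as deposited and, for the genes and lists described, again after a smooth trend on transcript length was taken out of every library. Relative depth on high fat ranged from 0.30 of the deepest library in Jnk1Jnk2 replicate 3 to 0.855 in control replicate 1, and the absolute depth is unknown. The summed skeletal muscle markers Acta1, Ckm and Mylpf read 357 FPKM in Jnk1Jnk2 replicate 3 and at most 1.42 in the other 11 libraries. The tissue label was checked on hepatocyte markers, which summed to between 27949 and 40272 FPKM in 11 libraries. In Jnk1 replicate 1 they summed to 10977, with Alb, the gene of albumin, listed at 0 there and at 16323 or more in the others.

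On high fat, 3889 of 10562 tested loci (36.8%) departed from additivity, 1333 with a positive departure (12.6%) and 2556 with a negative one (24.2%). The median departure of all tested loci was -0.14. Without Jnk1Jnk2 replicate 3 the count was 3812, and without Jnk1 replicate 1 it was 3332. The balance between directions depended on the scaling: median-of-ratios size factors gave 1902 positive and 1973 negative calls with a median of -0.03, and quantile normalization gave 1554 and 1818. With the length trend removed, 1873 of 10193 loci with a known length (18.4%) were called, 903 positive (8.86%) and 970 negative (9.52%). This count was 1642 without Jnk1Jnk2 replicate 3, 1409 without Jnk1 replicate 1 and 1129 without control replicate 2. In all, 1342 loci (12.7%) were called in the same direction with and without the length trend, 507 positive (4.8%) and 835 negative (7.91%).

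Length and departure moved together across loci. In the 10% of loci with the shortest transcripts the median departure was 0.58, with 480 positive and 8 negative calls. In the 10% with the longest it was -0.47, with 14 positive and 544 negative calls. Spearman's correlation between departure and transcript length across the 10193 loci was -0.61 on high fat, -0.01 after removal of the trend and 0.14 on chow. These are correlations across loci, which share libraries and are not independent replicates.

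**Figure D1:**
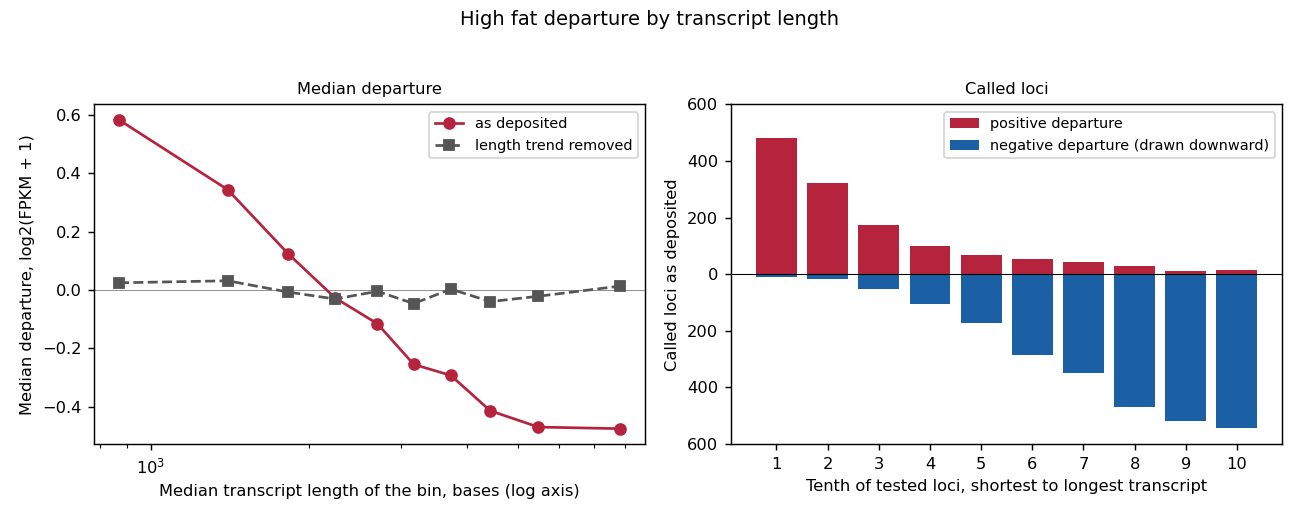
High fat departure by transcript length. Left: median departure, log2(FPKM + 1), of each 10% of loci against its median transcript length (log axis), as deposited (circles) and with the length trend removed (squares). Right: called loci in each 10%, positive departures drawn up and negative ones down. The deposited medians run from 0.58 in the shortest 10% to -0.47 in the longest, and the corrected ones lie near 0.

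The called loci were then sorted by the size of the 3 differences from high fat control, with 0.5 on the log2 scale as the limit. In 1752 of the 3889 called loci (45.1%, against 26.1% of all tested loci) only the double difference reached that size, 612 with a positive and 1140 with a negative departure. In 261 (6.71%, against 4.99%) a single knockout reached it and the double did not: 169 in Jnk2 only, 66 in Jnk1 only and 26 in both. In 16 (0.411%, against 0.72%) all 3 reached it with the same sign, and in 9 (0.231%, against 0.407%) the single knockouts reached it with opposite signs. The other 1851 included 1692 loci at which none of the 3 differences reached 0.5. The sorting was repeated with the length trend removed, which was added after seeing the data, and shares are set against all loci with a known length. The 1873 called loci then held 461 of the double only kind (24.6%, against 10.9%) and 180 of the single only kind (9.61%, against 4.9%). They held 17 shared (0.908%, against 0.687%) and 0 with opposite single differences (against 0.402%). Single knockouts that differed from control in opposite directions were the rarest of these patterns among the calls at this size. They were also the rarest among all tested loci, at 0.407%.

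The position of the single libraries was counted as well. At 811 of the 3889 called loci all 3 Jnk1Jnk2 libraries lay above the other 9 high fat libraries, and at 1727 they lay below all 9. The calls rest on the same libraries, so these counts describe the called loci and are no separate evidence for them. Over all tested loci these numbers were 1118 (10.6%) and 2426 (23.0%).

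**Figure D2:**
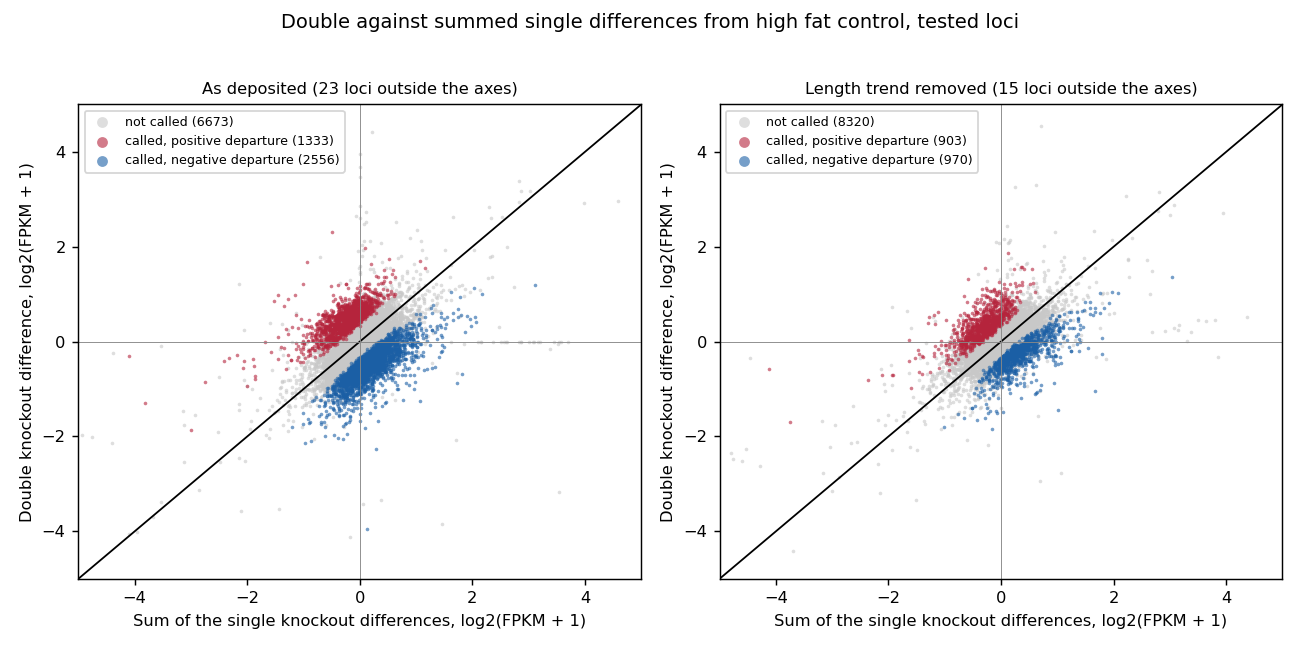
Double difference from high fat control against the sum of the Jnk1 and Jnk2 differences, both in log2(FPKM + 1), for each tested locus, as deposited (left) and with the length trend removed (right). The diagonal marks additivity, grey points were not called, red points are positive and blue points negative departures. As deposited 1333 loci are red and 2556 blue, and after removal of the trend 903 and 970.

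The genes given with a value for every library were picked by size of departure, shape or list membership, besides Mapk8, Mapk9, Fgf21 and Ppara, which were always included. The picks came from loci whose call held with the length trend removed. Picks by size or shape also had to hold with each high fat library left out in turn, and picks by list did not. Other list members are named to say which genes a count holds, whether or not their calls held with the trend removed, and were chosen after their values were seen. A few short promoter stretches are shown first because they place a JNK-linked sequence beside genes of both directions. Jun-containing AP-1 dimers bind the letters TGANTCA, which read the same on both strands. In the RefSeq promoter windows (GRCm38.p6, 250 bases before to 50 after the start site), this motif was found in 7.81% of all 32851 windows and 5.29% of the 9428 windows of tested loci. Windows of loci with a positive departure held it in 4.79% and those with a negative departure in 5.1%. Of the 111 windows of genes named by the rule, 11 held it (9.91%). Counted by gene, which is not the unit of these shares, 10 of the 86 with a window held a match in at least 1 window. These were Acnat1, Acox2, Atp5c1, C8g, Dhcr7, Ecm1, Hamp, Mia2, Palld and Retsat. The 3 shown were chosen after their values were seen, for the kinds of departure they show, as the 250 bases before the start site, 5′ to 3′, with the motif in capitals. Mia2 (chr12:59095341-59095590, plus strand) was low in the double livers, Hamp (chr7:30944030-30944279, minus strand) was high in them, and Retsat (chr6:72598352-72598601, plus strand) was highest in the Jnk2 livers.
Mia2: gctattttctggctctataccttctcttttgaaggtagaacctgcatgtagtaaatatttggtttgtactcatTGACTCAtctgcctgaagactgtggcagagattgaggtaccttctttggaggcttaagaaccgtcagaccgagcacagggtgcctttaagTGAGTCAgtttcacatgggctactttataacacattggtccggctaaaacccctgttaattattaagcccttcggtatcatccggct
Hamp: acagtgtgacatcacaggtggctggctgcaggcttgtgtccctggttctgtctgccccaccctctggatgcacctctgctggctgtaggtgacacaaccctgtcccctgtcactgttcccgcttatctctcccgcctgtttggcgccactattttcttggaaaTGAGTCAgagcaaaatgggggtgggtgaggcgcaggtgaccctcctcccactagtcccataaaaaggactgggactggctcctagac
Retsat: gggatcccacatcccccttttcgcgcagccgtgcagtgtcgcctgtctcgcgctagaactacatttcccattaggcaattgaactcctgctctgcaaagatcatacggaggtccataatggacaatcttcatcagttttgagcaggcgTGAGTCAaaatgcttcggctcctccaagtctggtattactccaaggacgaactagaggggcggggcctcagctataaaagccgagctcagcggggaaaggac
Mia2 held matches at bases 74 and 164 of its stretch, Hamp at base 164 and Retsat at base 149, counted from the 5′ end. Mia2 also has windows whose stretches begin at chr12:59129498 and chr12:59131231, and these held 0 matches. Which Mia2 start site is used in these livers was not tested. A match or its absence describes these letters in these windows and no more.

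The targeted genes came first among the kinases. Mapk8 (chr14:33377899-33447158, mm10), the gene of JNK1, read 4.12, 4.56 and 4.19 FPKM in the control livers, 1.92, 1.84 and 1.87 in Jnk1, 3.94, 3.38 and 4.84 in Jnk2 and 1.03, 0.845 and 1.49 in Jnk1Jnk2. Both groups with Jnk1 flox alleles lay below the other 6 libraries. The departure of Mapk8 was -0.37 ± 0.16 (SE, limma, adjusted p = 0.0687) and 0.08 with the length trend removed (adjusted p = 0.74), so no departure was called. It was called without Jnk1Jnk2 replicate 3 (-0.50, adjusted p = 0.0149) and without Jnk2 replicate 2 (-0.47, adjusted p = 0.0254). Mapk9 (chr11:49846751-49886421), the gene of JNK2, read 11.8, 10.3 and 10.9 FPKM in control, 11.6, 11.1 and 12.0 in Jnk1, 7.44, 6.58 and 7.79 in Jnk2 and 4.81, 4.33 and 4.73 in Jnk1Jnk2. The Jnk1Jnk2 livers were the lowest and did not overlap the Jnk2 livers. Its departure of -0.62 ± 0.13 (adjusted p = 0.00143) was -0.22 with the length trend removed (adjusted p = 0.149), where the call ended. Within 5 Mb of Mapk8, 28 of 58 tested loci were called (48.3%), and 25 of 61 within 5 Mb of Mapk9 (41.0%), against 36.8% of all tested loci.

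Calls in the JNK cascade were all negative. As deposited 12.6% of all tested loci had a positive and 24.2% a negative call, and 8.86% and 9.52% with the length trend removed. These shares stand beside every list below. The 11 tested genes of this list were kinases, with the targeted Mapk8 and Mapk9 among them, and phosphatases, and no scaffold was tested. Of the 11 genes 7 had a negative departure (63.6%) and 0 a positive one, with a median of -0.56. The 7 were Mapk9, Map2k4, Map3k5, Map3k7, Map3k11 and the phosphatases Dusp10 and Dusp16. The median transcript length of the 11 was 4682 bases, against 2935 over all tested loci. With the length trend removed 2 kept a call, with a median of -0.23. Those 2 were Map3k5 and Dusp16. Map3k5 read 5.59, 3.99 and 5.55 FPKM in the control livers, 5.08, 6.18 and 6.69 in Jnk1, 7.25, 6.57 and 7.76 in Jnk2 and 4.40, 3.37 and 2.86 in Jnk1Jnk2. Map3k5 encodes ASK1, a stress-sensing kinase upstream of JNK. Its Jnk1Jnk2 values lay below all Jnk1 and Jnk2 values and overlapped control, and the departure was -1.07 ± 0.20 (adjusted p = 0.000613) and -0.63 with the length trend removed. Dusp16 read 6.84, 5.88 and 7.38 FPKM in the control livers, 7.63, 6.83 and 7.95 in Jnk1, 6.78, 5.41 and 5.68 in Jnk2 and 2.80, 2.35 and 3.42 in Jnk1Jnk2. The 3 double libraries of Dusp16, a phosphatase that dephosphorylates JNK, were below the other 9 while both single groups overlapped control, and the departure was -1.0 ± 0.18 (adjusted p = 0.000655), or -0.57 with the trend removed.

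Of 13 AP-1 and immediate early genes, 4 departed downward (30.8%, against 24.2% of all tested loci) and 0 upward. The median was -0.63 as deposited and -0.74 with the trend removed. The 4 negative calls as deposited were Jun, Myc, Klf6 and Fosl2, and the 4 with the trend removed were Jun, Myc, Jund and Ier3. Jun read 7.04, 4.83 and 5.30 FPKM in the control livers, 8.07, 13.8 and 6.56 in Jnk1, 8.22, 8.56 and 9.40 in Jnk2 and 3.25, 3.62 and 3.38 in Jnk1Jnk2. Jun, the JNK substrate itself, was higher than most control values in both single groups and lowest in the double livers, whose 3 values lay below the other 9. The single differences were 0.59 and 0.54, the double difference -0.59, and the departure -1.73 ± 0.39 (adjusted p = 0.00266), or -1.53 with the trend removed. Among the others, Myc departed by -1.05 (adjusted p = 0.0192), Klf6 by -0.96 (adjusted p = 0.00388) and Fosl2 by -0.70 (adjusted p = 0.00306). With the trend removed Myc gave -1.02 (adjusted p = 0.0345), Jund -0.74 (adjusted p = 0.0321) and Ier3 -0.85 (adjusted p = 0.0104), and Klf6 (-0.61, adjusted p = 0.0543) and Fosl2 (-0.22, adjusted p = 0.371) were not called.

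**Figure D3:**
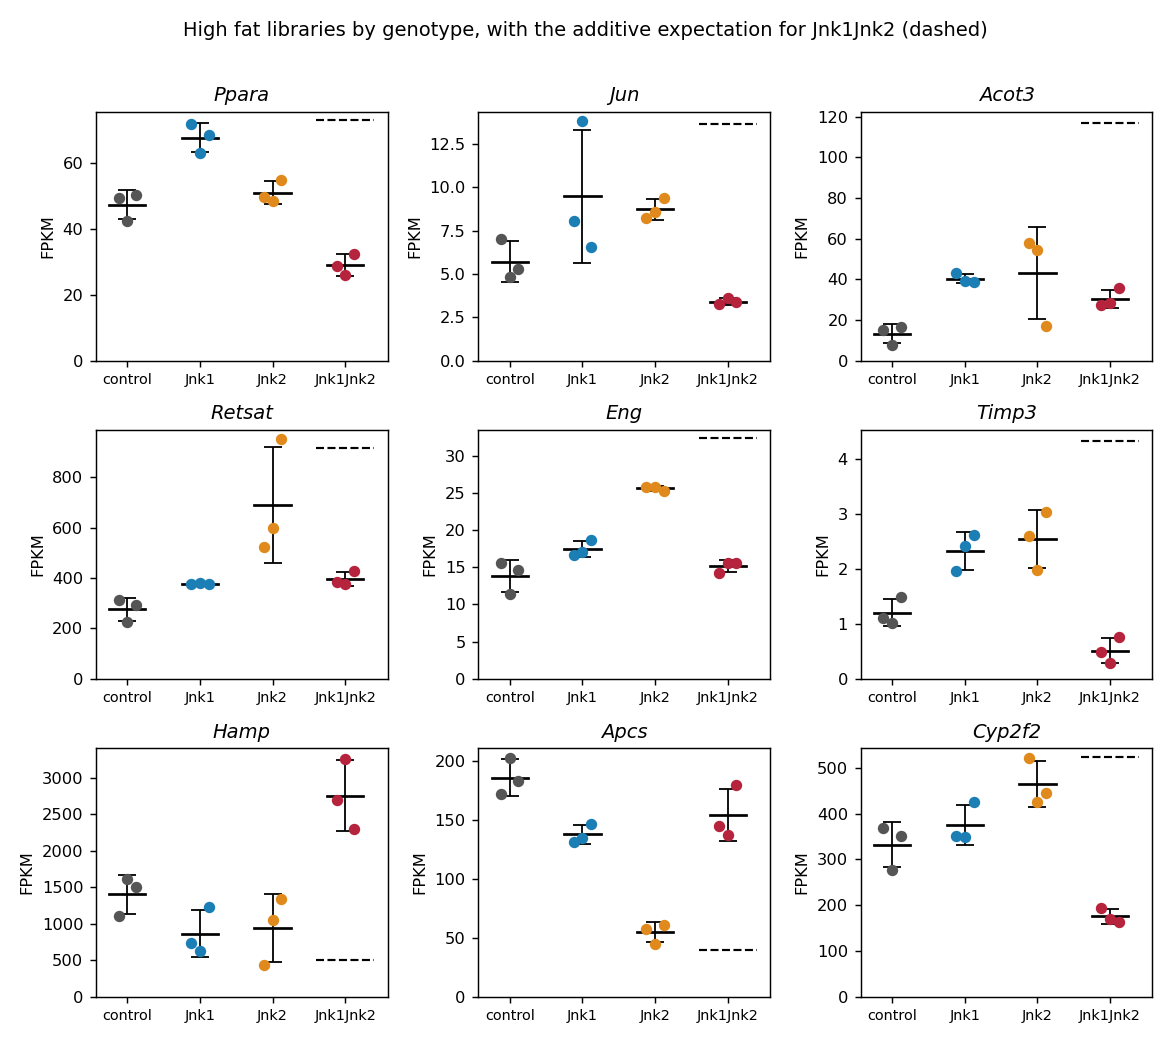
FPKM of 9 genes in each high fat library (points), with the group mean (horizontal bar) and SD (n = 3), on linear axes that start at 0. The dashed line at Jnk1Jnk2 is the level that the summed single differences on the log2(FPKM + 1) scale would give. The double livers lie below that line for Ppara, Jun, Acot3, Retsat, Eng, Timp3 and Cyp2f2 and above it for Hamp and Apcs.

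Ppara, Rxra and Ncor1 were lowest in the livers without both isoforms and at or above most control values in at least 1 single knockout. Of 15 genes of this group 9 had a negative departure (60.0%, against 24.2% of all tested loci) and 0 a positive one. Their median transcript length was 7329 bases, against 2935 over all tested loci. With the length trend removed 3 kept a negative call: Ppara, Rxra and Ncor1. The median of the group was -0.57 as deposited and -0.06 with the trend removed, against -0.14 and -0.01 over all tested loci. Ppara read 49.4, 42.2 and 50.2 FPKM in the control livers, 71.7, 63.1 and 68.4 in Jnk1, 49.7, 48.4 and 54.9 in Jnk2 and 28.8, 25.9 and 32.4 in Jnk1Jnk2. Ppara (chr15:85735564-85806851), the fatty acid-sensing nuclear receptor, was highest in the Jnk1 livers and lowest in the double livers, and neither group overlapped another. Its departure was -1.31 ± 0.16 (adjusted p = 3.83e-05), or -1.06 with the trend removed (adjusted p = 0.000184). Rxra read 88.7, 75.6 and 105 FPKM in the control livers, 104, 99.6 and 107 in Jnk1, 87.5, 91.2 and 103 in Jnk2 and 61.2, 53.3 and 62.5 in Jnk1Jnk2. For Rxra, the binding partner of PPARα, the double libraries were the 3 lowest and the departure was -0.88 ± 0.16 (adjusted p = 0.000655), or -0.46 with the trend removed. Ncor1 read 21.7, 20.4 and 17.8 FPKM in the control livers, 23.9, 17.1 and 27.1 in Jnk1, 16.8, 14.3 and 20.6 in Jnk2 and 9.73, 6.86 and 9.53 in Jnk1Jnk2. Ncor1, a corepressor of nuclear receptors, was also lowest in all 3 double libraries, with a departure of -1.07 ± 0.24 (adjusted p = 0.00231), or -0.56 with the trend removed.

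Fgf21, the fasting hormone, had a positive departure that did not pass the test. Fgf21 read 6.29, 10.4 and 15.4 FPKM in the control livers, 5.05, 7.78 and 4.48 in Jnk1, 12.8, 13.6 and 68.2 in Jnk2 and 39.5, 44.8 and 54.2 in Jnk1Jnk2. The double livers lay above all control and Jnk1 values, and 1 Jnk2 library of 68.2 FPKM lay above them. The Jnk1 difference was -0.74, the Jnk2 difference 1.12 and the double difference 2.08, which put the departure at 1.70 ± 0.67 with an adjusted p of 0.0556 by limma, short of the threshold, and at 1.19 with the trend removed (adjusted p = 0.245). The call turned on single libraries: the adjusted p was 0.000909 without Jnk2 replicate 3 (departure 2.47), 0.0335 without control replicate 1 (2.01) and 0.0496 without Jnk1 replicate 2 (1.91).

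Across 30 tested targets the median difference from control was 0.14 in Jnk1, 0.71 in Jnk2 and 0.74 in Jnk1Jnk2, with a median departure of -0.26 as deposited and with the trend removed. A negative departure was called for 8 and a positive one for 2, Fabp1 and Apoa5, and with the trend removed for 6 and 1, Apoa5. Acot3 read 15.2, 7.92 and 16.7 FPKM in the control livers, 43.1, 39.2 and 38.8 in Jnk1, 57.7, 54.2 and 17.2 in Jnk2 and 27.4, 28.4 and 35.6 in Jnk1Jnk2. Acot3, a peroxisomal acyl-CoA thioesterase, was above control in every library of the other groups, and the Jnk1 and Jnk1Jnk2 values stayed apart while the Jnk2 values spanned both. Its single differences of 1.59 and 1.51 summed to more than the double difference of 1.19, a departure of -1.91 ± 0.55 (adjusted p = 0.0123), or -1.66 with the trend removed (adjusted p = 0.0418). Acot2 read 7.51, 6.01 and 5.52 FPKM in the control livers, 8.21, 9.54 and 7.91 in Jnk1, 19.8, 18.6 and 28.2 in Jnk2 and 12.9, 14.3 and 17.8 in Jnk1Jnk2. Acot2, the mitochondrial member of the family, was ordered control, Jnk1, Jnk1Jnk2 and Jnk2 without overlap, with a departure of -0.91 ± 0.21 (adjusted p = 0.00315), or -0.92. Acot2 and Acot3 lie in a cluster of similar genes, so reads may be split between them. Retsat read 312, 225 and 294 FPKM in the control livers, 378, 379 and 376 in Jnk1, 522, 597 and 951 in Jnk2 and 386, 376 and 429 in Jnk1Jnk2. Retsat, a retinol saturase, was highest in the Jnk2 livers, and the double livers overlapped the Jnk1 livers. The departure was -1.21 ± 0.23 (adjusted p = 0.00075), or -1.03.

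Both acyltransferases of the carnitine shuttle had a negative departure. Cpt1a read 129, 114 and 134 FPKM in the control livers, 153, 154 and 174 in Jnk1, 179, 168 and 294 in Jnk2 and 140.0, 95.9 and 129.5 in Jnk1Jnk2. Cpt1a, which controls entry of fatty acids into mitochondria, was above control in all 6 single knockout libraries, and the double livers overlapped control, a departure of -1.13 ± 0.23 (adjusted p = 0.0013), or -0.76 with the trend removed. Cpt2 read 85.1, 69.7 and 87.9 FPKM in the control livers, 89.7, 91.8 and 88.5 in Jnk1, 118, 114 and 130.3 in Jnk2 and 86.8, 89.9 and 90.1 in Jnk1Jnk2. Cpt2, its partner at the inner membrane, was highest in the 3 Jnk2 libraries and departed by -0.59 ± 0.13 (adjusted p = 0.00152), or -0.56. Over the 22 mitochondrial fatty acid oxidation and ketogenesis genes there were 5 positive and 4 negative calls with a median of 0.06, 3 and 3 with the trend removed (median 0.02) and 9 and 2 with size factors (median 0.20). Of 19 peroxisomal oxidation genes 8 departed downward and 3 upward, and 6 and 2 with the trend removed, while size factors gave 6 in each direction. Abcd3 read 172, 149.6 and 169 FPKM in the control livers, 193, 189 and 182 in Jnk1, 206, 193 and 216 in Jnk2 and 128, 116 and 155 in Jnk1Jnk2. Abcd3, a peroxisomal membrane transporter for fatty acyl groups, was above control in the single knockouts and, apart from 1 library, below it in the double, with a departure of -0.83 ± 0.15 (adjusted p = 0.000505), or -0.58. Amacr read 53.8, 59.1 and 64.2 FPKM in the control livers, 51.4, 52.8 and 54.6 in Jnk1, 64.4, 66.0 and 66.8 in Jnk2 and 75.4, 83.7 and 87.2 in Jnk1Jnk2. Amacr, the racemase of branched fatty acid breakdown, went the other way, with the 3 double libraries above the other 9 and a departure of 0.47 ± 0.12 (adjusted p = 0.00679), or 0.55.

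Lipid storage and synthesis genes held departures in both directions. Of 17 lipid droplet and lipolysis genes 4 departed downward and 0 upward, and of 19 lipogenesis genes 6 downward and 3 upward, shares near the 24.2% of all tested loci that were called negative. With the trend removed these became 4 and 1 for droplets and 2 and 1 for lipogenesis. Gpam read 25.2, 21.2 and 25.4 FPKM in the control livers, 33.2, 27.5 and 26.8 in Jnk1, 24.5, 19.8 and 35.8 in Jnk2 and 8.14, 5.68 and 13.8 in Jnk1Jnk2. Gpam, which catalyses the first step of glycerolipid synthesis in mitochondria, was below the other 9 libraries in all 3 double livers, a departure of -1.75 ± 0.32 (adjusted p = 0.000643), or -1.28 with the trend removed. Fitm2 read 16.7, 14.2 and 15.7 FPKM in the control livers, 20.0, 17.4 and 19.0 in Jnk1, 23.3, 21.2 and 31.6 in Jnk2 and 14.6, 14.3 and 18.6 in Jnk1Jnk2. For Fitm2, a protein of lipid droplet formation, the Jnk2 livers were highest and the double livers overlapped control, with a departure of -0.90 ± 0.19 (adjusted p = 0.00139), or -0.57. Fads2 read 124, 115 and 125 FPKM in the control livers, 166, 169 and 192 in Jnk1, 231, 227 and 367 in Jnk2 and 193, 119 and 200.1 in Jnk1Jnk2. Fads2, a fatty acid desaturase, was above control in all single knockout libraries, and the departure was -1.21 ± 0.27 (adjusted p = 0.00195), or -1.01. Nr1h3 read 51.6, 67.7 and 57.7 FPKM in the control livers, 54.2, 55.4 and 54.6 in Jnk1, 57.4, 56.6 and 49.6 in Jnk2 and 82.3, 87.6 and 92.7 in Jnk1Jnk2. Nr1h3, the sterol-sensing receptor LXRα, was above the other 9 libraries in the double livers while both single groups stayed within the control range or just below it, a departure of 0.77 ± 0.15 (adjusted p = 0.00075), or 0.69. Pnpla7 read 33.4, 51.5 and 34.9 FPKM in the control livers, 25.5, 25.9 and 28.5 in Jnk1, 43.4, 45.1 and 57.2 in Jnk2 and 83.5, 90.9 and 101 in Jnk1Jnk2. Pnpla7, a lysophospholipase, was below control in Jnk1 livers and above all other libraries in the double livers, with a departure of 1.45 ± 0.20 (adjusted p = 0.000108), or 1.84.

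Cholesterol synthesis genes had a higher median level in Jnk1 livers than in the other 3 groups. Across 23 tested genes of synthesis and uptake the median difference from control was 0.71 in Jnk1, -0.44 in Jnk2 and -0.30 in Jnk1Jnk2. A negative departure was called for 8 (34.8%, against 24.2% of all tested loci) and a positive one for 0, with a median of -0.33. With the trend removed a negative one was called for 2, with a median of -0.30. Lss read 2.69, 3.15 and 3.38 FPKM in the control livers, 7.15, 7.63 and 5.14 in Jnk1, 2.59, 3.23 and 2.77 in Jnk2 and 2.47, 1.75 and 2.36 in Jnk1Jnk2. The 3 Jnk1 values of Lss, lanosterol synthase, lay above the other 9, the Jnk2 livers overlapped control, and the double livers lay below all the others. The departure was -1.17 ± 0.22 (adjusted p = 0.000613), or -0.78 with the trend removed. Dhcr7 read 5.62, 5.49 and 6.30 FPKM in the control livers, 9.36, 9.68 and 6.62 in Jnk1, 3.86, 4.60 and 5.75 in Jnk2 and 2.94, 1.96 and 3.35 in Jnk1Jnk2. Dhcr7, the enzyme of the last step to cholesterol, was likewise highest in Jnk1 and lowest in Jnk1Jnk2 livers, with a departure of -1.10 ± 0.22 (adjusted p = 0.00111), or -0.96.

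Among 21 bile acid genes 3 departed downward and 2 upward, and 5 and 1 with the trend removed. Abcc2 read 75.4, 60.2 and 59.6 FPKM in the control livers, 89.9, 75.9 and 86.6 in Jnk1, 43.1, 35.2 and 49.1 in Jnk2 and 21.1, 13.0 and 24.4 in Jnk1Jnk2. Abcc2, the canalicular export pump for conjugates, was ordered Jnk1, control, Jnk2 and Jnk1Jnk2 from high to low without overlap, and departed by -1.48 ± 0.30 (adjusted p = 0.00126), or -0.99 with the trend removed. Acnat1 read 29.8, 22.7 and 26.6 FPKM in the control livers, 26.3, 24.6 and 24.0 in Jnk1, 18.7, 17.9 and 20.8 in Jnk2 and 11.7, 11.6 and 11.4 in Jnk1Jnk2. Acnat1, an acyltransferase that conjugates acyl groups to amino acids, was lowest in the 3 double libraries, with a departure of -0.61 ± 0.16 (adjusted p = 0.00704), or -0.87.

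Most genes of the acute phase list encode plasma proteins made in inflammation. The list also held metallothionein, receptor and signalling genes. Its median difference from control over 26 tested genes was -0.26 in Jnk1, -0.82 in Jnk2 and -0.80 in Jnk1Jnk2, and single members differed from these medians. Of the 26 genes 5 departed upward and 2 downward, against 12.6% and 24.2% of all tested loci, with a median of 0.71. With the trend removed 2 and 1 did, with a median of 0.41. As deposited the 5 were Hamp, Apcs, Hpx, Orm1 and Orm3, and the 2 were the receptor genes Il6ra and Il1r1. Hamp read 1101, 1609 and 1502 FPKM in the control livers, 732, 629.7 and 1236 in Jnk1, 433, 1053 and 1339 in Jnk2 and 2699.5, 3261 and 2300.3 in Jnk1Jnk2. Hamp (chr7:30942369-30944017), the gene of the iron hormone hepcidin, was above the other 9 libraries in the double livers and below most control values in both single groups. The single differences of -0.74 and -0.71 and the double difference of 0.98 gave a departure of 2.42 ± 0.55 (adjusted p = 0.0032), or 1.75 with the trend removed (adjusted p = 0.0491). A near copy, Hamp2, may share its reads. Apcs read 172, 202 and 183 FPKM in the control livers, 131, 135 and 147 in Jnk1, 57.6, 45.0 and 61.1 in Jnk2 and 145, 137 and 179 in Jnk1Jnk2. Apcs, serum amyloid P, was lowest in the 3 Jnk2 libraries, and the double livers overlapped both Jnk1 and control, a departure of 1.91 ± 0.38 (adjusted p = 0.00123), or 1.41 with the trend removed. Il6ra read 9.85, 10.3 and 18.6 FPKM in the control livers, 23.5, 19.4 and 18.9 in Jnk1, 11.3, 8.16 and 12.1 in Jnk2 and 5.43, 3.28 and 4.82 in Jnk1Jnk2. Il6ra, the receptor chain for interleukin 6, was highest in Jnk1 and lowest in double livers, with a departure of -1.75 ± 0.34 (adjusted p = 0.000957), or -1.25. As deposited, the acute phase genes Orm1 and Orm3 also departed upward, by 1.64 (adjusted p = 0.00205) and 1.90 (adjusted p = 0.0445), and these calls ended with the trend removed (adjusted p = 0.0795 and 0.185).

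Genes of the secretory path and its cargo departed in both directions. Sdf2l1 read 16.3, 26.9 and 22.0 FPKM in the control livers, 12.0, 13.3 and 10.5 in Jnk1, 8.46, 7.63 and 3.72 in Jnk2 and 12.3, 19.6 and 16.1 in Jnk1Jnk2. Sdf2l1, part of a chaperone complex of the endoplasmic reticulum, was ordered control, then Jnk1, then Jnk2, with the double livers overlapping control and Jnk1, and departed by 2.00 ± 0.36 (adjusted p = 0.000655), or 1.55 with the trend removed. Fkbp11 read 14.9, 20.5 and 12.6 FPKM in the control livers, 9.47, 10.6 and 8.01 in Jnk1, 9.71, 12.3 and 7.79 in Jnk2 and 15.6, 20.2 and 22.0 in Jnk1Jnk2. Fkbp11, a peptidyl-prolyl isomerase of secretory cells, was below control in all 6 single knockout libraries, and the double livers overlapped control, with a departure of 1.59 ± 0.26 (adjusted p = 0.000302), or 0.96. Of 23 chaperone and unfolded protein response genes, Sdf2l1 was the only one with a positive call, and 4 had a negative one, all of which ended with the trend removed. Mia2 read 33.3, 28.7 and 28.7 FPKM in the control livers, 43.1, 36.6 and 40.7 in Jnk1, 27.4, 18.6 and 27.6 in Jnk2 and 8.14, 4.79 and 12.1 in Jnk1Jnk2. Mia2, a protein that exports cargo from the endoplasmic reticulum, had double values below the other 9 and a departure of -1.90 ± 0.32 (adjusted p = 0.000467), or -1.53. Enho read 10.7, 15.6 and 19.8 FPKM in the control livers, 10.9, 6.58 and 13.3 in Jnk1, 5.34, 13.3 and 12.1 in Jnk2 and 33.9, 30.4 and 27.3 in Jnk1Jnk2. Enho, the gene of the peptide adropin, had double values above the other 9 and a departure of 2.12 ± 0.40 (adjusted p = 0.000953), or 1.75. C8g read 365, 465 and 353 FPKM in the control livers, 386, 418 and 303 in Jnk1, 308, 329.6 and 216 in Jnk2 and 535, 682 and 582 in Jnk1Jnk2. C8g, a chain of complement C8, was above the other 9 libraries in the double and lowest on average in Jnk2, with a departure of 1.19 ± 0.22 (adjusted p = 0.000588), or 0.76. Of the 27 complement and coagulation genes 1 departed upward, C8g, and 7 downward, but 2 and 2 did with the trend removed and 2 and 2 with size factors.

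Calls among the interferon-stimulated genes were mostly positive, and most members were not called. Their median difference from control was -0.28 in Jnk1, -0.31 in Jnk2 and -0.35 in Jnk1Jnk2. Of 24 tested, 6 departed upward and 1 downward, against 12.6% and 24.2% of all tested loci, with a median of 0.25. With the trend removed 5 and 0 did, with a median of 0.34. Irf7 read 23.2, 34.2 and 28.4 FPKM in the control livers, 21.0, 17.7 and 26.9 in Jnk1, 22.4, 28.1 and 18.1 in Jnk2 and 36.3, 41.2 and 35.3 in Jnk1Jnk2. Irf7, a transcription factor of the interferon response, was above the other 9 libraries in the double livers, with a departure of 1.08 ± 0.25 (adjusted p = 0.00304), or 1.08 with the trend removed. Rtp4 read 12.2, 19.2 and 13.6 FPKM in the control livers, 8.30, 8.20 and 8.87 in Jnk1, 11.3, 11.2 and 6.29 in Jnk2 and 12.4, 15.1 and 12.5 in Jnk1Jnk2. Rtp4, an interferon-induced protein, was below control in all 6 single knockout libraries, and the double livers overlapped control, with a departure of 1.21 ± 0.28 (adjusted p = 0.00305), or 1.09. Isg15 (1.43, adjusted p = 0.0257), Usp18 (1.04, adjusted p = 0.0083), Oas1a (0.75, adjusted p = 0.00432) and Bst2 (1.05, adjusted p = 0.00282) were the other positive calls. With the trend removed Isg15 (0.81, adjusted p = 0.142) and Bst2 (0.45, adjusted p = 0.152) were not called, Usp18 (0.89) and Oas1a (0.64) were, and Oas2 (0.74, adjusted p = 0.0343) was called only there.

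Most insulin signalling genes were not called. Of 22 tested, 9 had a negative departure (40.9%, against 24.2% of all tested loci) and 0 a positive one, with a median of -0.27. With the trend removed 4 had a negative and 1 a positive one, with a median of -0.06. Foxo1 read 7.12, 7.31 and 10.2 FPKM in the control livers, 13.4, 10.9 and 13.2 in Jnk1, 8.31, 7.67 and 8.42 in Jnk2 and 4.32, 3.79 and 4.61 in Jnk1Jnk2. Foxo1, a transcription factor that insulin holds out of the nucleus, was highest in the Jnk1 livers and lowest in the 3 double libraries, a departure of -1.37 ± 0.20 (adjusted p = 0.000165), or -0.87 with the trend removed. Foxo3 read 6.10, 6.66 and 6.08 FPKM in the control livers, 9.45, 8.49 and 9.34 in Jnk1, 7.08, 5.57 and 7.36 in Jnk2 and 3.82, 3.44 and 3.66 in Jnk1Jnk2. Foxo3, its relative, was also highest in the Jnk1 and lowest in the double livers, with a departure of -1.19 ± 0.17 (adjusted p = 0.000148), or -0.71. Insr read 21.1, 16.7 and 19.9 FPKM in the control livers, 23.3, 20.2 and 20.9 in Jnk1, 10.9, 10.5 and 15.0 in Jnk2 and 7.26, 4.94 and 7.92 in Jnk1Jnk2. Insr, the insulin receptor, was lower in Jnk2 than in control livers without overlap and lower again in the double livers, with a departure of -0.93 ± 0.21 (adjusted p = 0.00231), or -0.42 with the trend removed (adjusted p = 0.046).

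Some genes of other liver cell types were called too, although the alleles are recombined in hepatocytes. In bulk tissue, fewer cells of a type and less RNA per cell cannot be told apart. Of 18 tested endothelial genes 10 departed downward (55.6%, against 24.2% of all tested loci) and 0 upward, with a median of -0.65. Their median transcript length was 3775 bases, against 2935 over all tested loci. With the trend removed 7 and 0 departed, against 9.52% and 8.86% of loci with a known length, with a median of -0.34. Summed levels of the 4 defining endothelial markers were mostly Clec4g, which read 27.5 to 36.3 FPKM in control and 51.0 to 64.3 in Jnk1Jnk2 livers, while Stab2 read 5.52 to 5.95 and 3.73 to 4.57, Kdr 3.80 to 5.84 and 3.11 to 3.85 and Pecam1 3.89 to 4.26 and 3.85 to 4.25. The 4 together summed to between 43.5 and 49.5 FPKM in control, 45.5 and 55.0 in Jnk1, 63.1 and 67.0 in Jnk2 and 62.8 and 75.7 in Jnk1Jnk2 livers, and their part in these departures was not tested. Eng read 15.5, 11.4 and 14.7 FPKM in the control livers, 16.7, 17.1 and 18.7 in Jnk1, 25.9, 25.8 and 25.3 in Jnk2 and 14.3, 15.6 and 15.6 in Jnk1Jnk2. Eng, endoglin, a coreceptor for TGFβ family ligands, was highest in the 3 Jnk2 libraries, and the double livers overlapped control, a departure of -1.05 ± 0.15 (adjusted p = 0.000118), or -0.80 with the trend removed. Oit3 read 5.60, 4.12 and 5.62 FPKM in the control livers, 6.60, 7.30 and 8.18 in Jnk1, 10.7, 10.7 and 11.8 in Jnk2 and 6.54, 5.32 and 5.15 in Jnk1Jnk2. Oit3, a protein of liver sinusoidal endothelium, had the same order and a departure of -1.32 ± 0.19 (adjusted p = 0.000128), or -1.20. Ptprb read 4.41, 3.61 and 3.50 FPKM in the control livers, 5.11, 5.08 and 5.64 in Jnk1, 4.27, 3.81 and 5.19 in Jnk2 and 2.41, 1.93 and 2.28 in Jnk1Jnk2. Ptprb, an endothelial phosphatase, was lowest in the 3 double libraries, with a departure of -1.13 ± 0.15 (adjusted p = 7.31e-05), or -0.62. Of the 4 defining markers 3 were called negative and 0 positive as deposited, and Clec4g was not called. The 3 were Stab2, Kdr (-1.18, adjusted p = 0.000542) and Pecam1 (-0.86, adjusted p = 0.000686). With the trend removed Kdr and Pecam1 kept their calls (-0.72 and -0.61), and the value of Stab2 is not given here.

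Of 20 stellate cell and matrix genes 7 departed downward (35.0%, against 24.2% of all tested loci) and 0 upward, and 3 and 0 with the trend removed. Dcn made up most of the 5 stellate markers (72.0 to 91.9 FPKM in control and 84.8 to 122 in Jnk1Jnk2 livers), and Des, also a muscle gene, read 32.9 in Jnk1Jnk2 replicate 3. The 5 together summed to between 85.7 and 112 FPKM in control, 84.4 and 101 in Jnk1, 111 and 144 in Jnk2 and 99.1 and 172 in Jnk1Jnk2 livers. Bgn read 30.6, 21.9 and 33.8 FPKM in the control livers, 32.4, 32.2 and 39.2 in Jnk1, 56.1, 47.0 and 59.3 in Jnk2 and 27.9, 29.2 and 34.5 in Jnk1Jnk2. Bgn, the matrix proteoglycan biglycan, was highest in the 3 Jnk2 libraries and otherwise overlapping, with a departure of -1.08 ± 0.23 (adjusted p = 0.00153), or -1.03 with the trend removed. Timp3 read 1.10, 1.02 and 1.49 FPKM in the control livers, 1.96, 2.42 and 2.63 in Jnk1, 2.60, 1.99 and 3.04 in Jnk2 and 0.491, 0.289 and 0.752 in Jnk1Jnk2. Timp3, an inhibitor of matrix proteases, was above control in all 6 single knockout libraries and below it in the 3 double libraries, a departure of -1.83 ± 0.20 (adjusted p = 1.45e-05), or -1.43, and -3.08 with a pseudocount of 0.1, since its level was low. Palld read 13.4, 10.7 and 10.7 FPKM in the control livers, 16.4, 13.7 and 14.7 in Jnk1, 12.7, 10.5 and 11.3 in Jnk2 and 2.88, 1.77 and 4.59 in Jnk1Jnk2. Palld, the actin-binding protein palladin, had 3 double values below the other 9, a departure of -2.01 ± 0.27 (adjusted p = 0.000118), or -1.54.

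Calls among macrophage genes were all positive. Of 21 tested, 9 departed upward (42.9%, against 12.6% of all tested loci) and 0 downward, with a median of 0.45. With the trend removed 3 and 0 did, with a median of 0.15. Of the 7 defining macrophage markers 1 was called positive and 0 negative as deposited. Clec4f had the highest level of the 7 (45.2 to 52.0 FPKM in control and 58.2 to 71.8 in Jnk1Jnk2 livers). Cd68 was also higher in the double livers (9.34 to 9.53 and 11.8 to 17.9). Csf1r (15.4 to 16.4 and 11.0 to 14.2) and Adgre1 (5.80 to 7.21 and 4.32 to 5.71) went the other way. Vsig4, Timd4 and Marco overlapped control. The 7 together summed to between 109.9 and 124 FPKM in control, 89.4 and 149 in Jnk1, 104 and 155 in Jnk2 and 122 and 149 in Jnk1Jnk2 livers. Lyz1 read 6.63, 7.30 and 3.98 FPKM in the control livers, 4.91, 5.05 and 5.73 in Jnk1, 4.44, 4.37 and 5.26 in Jnk2 and 7.06, 18.1 and 23.4 in Jnk1Jnk2. Lyz1, a lysozyme, was above the other groups in 2 of the 3 double libraries, while the first lay within the control range, and departed by 1.58 ± 0.40 (adjusted p = 0.00528), or 1.21 with the trend removed. Its near copy Lyz2 departed by 1.35 (adjusted p = 0.0119), or 0.998 with the trend removed (adjusted p = 0.0625), where it was not called, and reads may be split between the pair. Of 15 lipid-associated macrophage genes 2 departed upward and 0 downward, and 3 and 0 with the trend removed. The 14 skeletal muscle and pancreas genes tested had a median departure of 1.81 with 0 calls, and 1.28 with 0 calls with the trend removed, and the muscle markers were high in Jnk1Jnk2 replicate 3 alone.

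Drug metabolism and clock genes had no positive call, and most were not called. Of 24 tested P450 genes and regulators 7 had a negative departure, a share near the 24.2% of all tested loci, with a median of -0.41, and 5 with the trend removed, with a median of -0.40. Cyp2f2 read 369, 276 and 351 FPKM in the control livers, 351, 348 and 426 in Jnk1, 521, 426 and 446 in Jnk2 and 194, 169.7 and 164 in Jnk1Jnk2. Cyp2f2, a P450 of periportal hepatocytes, was highest on average in Jnk2 and lowest in the double livers, whose 3 values lay below the other 9, a departure of -1.57 ± 0.18 (adjusted p = 1.91e-05), or -1.69 with the trend removed. Cyp2c44 read 78.4, 52.6 and 96.4 FPKM in the control livers, 77.5, 77.0 and 81.2 in Jnk1, 81.3, 91.0 and 87.2 in Jnk2 and 52.1, 41.9 and 38.4 in Jnk1Jnk2. For Cyp2c44, an epoxygenase, the double livers again lay below the other 9, with a departure of -1.06 ± 0.23 (adjusted p = 0.00193), or -1.16. Por read 125, 125 and 205 FPKM in the control livers, 259, 284 and 290.1 in Jnk1, 258, 262 and 269 in Jnk2 and 274, 227 and 219.9 in Jnk1Jnk2. Por, the reductase that supplies electrons to the P450 enzymes, was one of the 16 shared cases. The 9 knockout libraries lay above control, and the double livers were no higher than either single group, with differences of 0.91, 0.83 and 0.70 and a departure of -1.04 ± 0.22 (adjusted p = 0.00149), or -0.94.

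Of 22 clock and output genes 8 departed downward (36.4%, against 24.2% of all tested loci), with a median of -0.73. With the trend removed 3 did, with a median of -0.54. On chow a departure was called for 9 of the 22, against 1.61% of all tested loci. The difference between diets was called for some members, with the high fat departure higher for 2 and lower for 4. No label gives the hour of tissue collection, and its part in the clock genes was not tested. Per2 read 3.30, 5.00 and 3.90 FPKM in the control livers, 10.8, 8.55 and 10.7 in Jnk1, 5.72, 5.27 and 2.48 in Jnk2 and 2.27, 1.75 and 3.19 in Jnk1Jnk2. Per2, a repressor of the clock, was highest in the 3 Jnk1 libraries, and the double values lay below control and overlapped Jnk2, with a departure of -1.78 ± 0.40 (adjusted p = 0.00256), or -1.32. Hlf read 18.9, 16.3 and 18.3 FPKM in the control livers, 27.9, 20.8 and 22.2 in Jnk1, 19.3, 16.3 and 13.0 in Jnk2 and 6.84, 7.44 and 8.88 in Jnk1Jnk2. Hlf, a clock output transcription factor, was lowest in the 3 double libraries, with a departure of -1.35 ± 0.19 (adjusted p = 0.000137), or -0.90. Cry2 read 8.52, 6.11 and 8.59 FPKM in the control livers, 10.8, 9.98 and 11.0 in Jnk1, 10.6, 10.7 and 7.45 in Jnk2 and 5.58, 5.56 and 5.69 in Jnk1Jnk2. Cry2, another clock repressor, was lowest in the double livers too, with a departure of -1.08 ± 0.20 (adjusted p = 0.00075), or -0.75. Zbtb16 read 3.32, 1.66 and 1.65 FPKM in the control livers, 4.55, 8.64 and 8.89 in Jnk1, 2.94, 1.80 and 6.05 in Jnk2 and 1.10, 1.16 and 0.661 in Jnk1Jnk2. Zbtb16, a zinc finger transcription factor, was above control in all 3 Jnk1 libraries and below it in the double, a departure of -2.49 ± 0.60 (adjusted p = 0.00481), or -2.07.

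As deposited, amino acid and redox genes held a smaller share of calls (18.8% and 21.7%) than all tested loci (36.8%). Of 32 urea cycle and amino acid catabolism genes 5 departed downward and 1 upward, and 3 and 0 with the trend removed, while size factors gave 1 and 3. Uroc1 read 132, 106 and 116 FPKM in the control livers, 147, 142 and 148 in Jnk1, 127, 113 and 92.6 in Jnk2 and 52.8, 56.8 and 60.0 in Jnk1Jnk2. Uroc1, the urocanase of histidine breakdown, was lowest in the 3 double libraries, with a departure of -1.26 ± 0.19 (adjusted p = 0.000181), or -1.0 with the trend removed. Of 23 glutathione and NRF2 target genes 4 departed downward and 1 upward. With the trend removed 6 and 0 did, against 9.52% and 8.86% of loci with a known length. Nfe2l2 read 32.5, 27.5 and 24.8 FPKM in the control livers, 29.9, 26.5 and 28 in Jnk1, 31.0, 29.6 and 33.5 in Jnk2 and 20.3, 20.6 and 24.1 in Jnk1Jnk2. Nfe2l2, the gene of NRF2, was lowest in the 3 double libraries and departed by -0.52 ± 0.14 (adjusted p = 0.00691), or -0.46.

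The lists with the largest share of positive calls hold short transcripts, and most of those loci were not called with the length trend removed. Of 38 ribosomal protein genes 19 departed upward and 0 downward, with a median of 0.50 and a median transcript length of 942 bases, and with the trend removed 4 did, with a median of -0.01. Of 47 oxidative phosphorylation subunits 28 departed upward and 4 downward, with a median of 0.59, and with the trend removed 4 and 4. Of 31 proteasome subunits 20 departed upward and 2 downward, with a median of 0.53, and with the trend removed 6 and 0, with a median of 0.18. Psmb1 read 108, 139 and 141 FPKM in the control livers, 119, 121 and 116 in Jnk1, 130.4, 129 and 126 in Jnk2 and 239, 232 and 232 in Jnk1Jnk2. Psmb1, a core proteasome subunit, had double values above the other 9 and a departure of 0.97 ± 0.16 (adjusted p = 0.000325), or 0.89. Rpsa read 209, 311 and 266 FPKM in the control livers, 228, 239 and 254 in Jnk1, 287, 317 and 307 in Jnk2 and 519.8, 643 and 541 in Jnk1Jnk2. Rpsa, a protein of the small ribosomal subunit with many processed copies in the genome, also had double values above the other 9. Its departure was 1.01 ± 0.21 (adjusted p = 0.00123), or 0.92. Sdha read 142, 106 and 136 FPKM in the control livers, 151, 148 and 141 in Jnk1, 153, 133 and 130.1 in Jnk2 and 76.8, 77.3 and 89.1 in Jnk1Jnk2. Sdha, a subunit of complex II with a longer transcript, went against its list, with double values below the other 9 and a departure of -0.97 ± 0.15 (adjusted p = 0.000209), or -0.82.

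**Figure D4:**
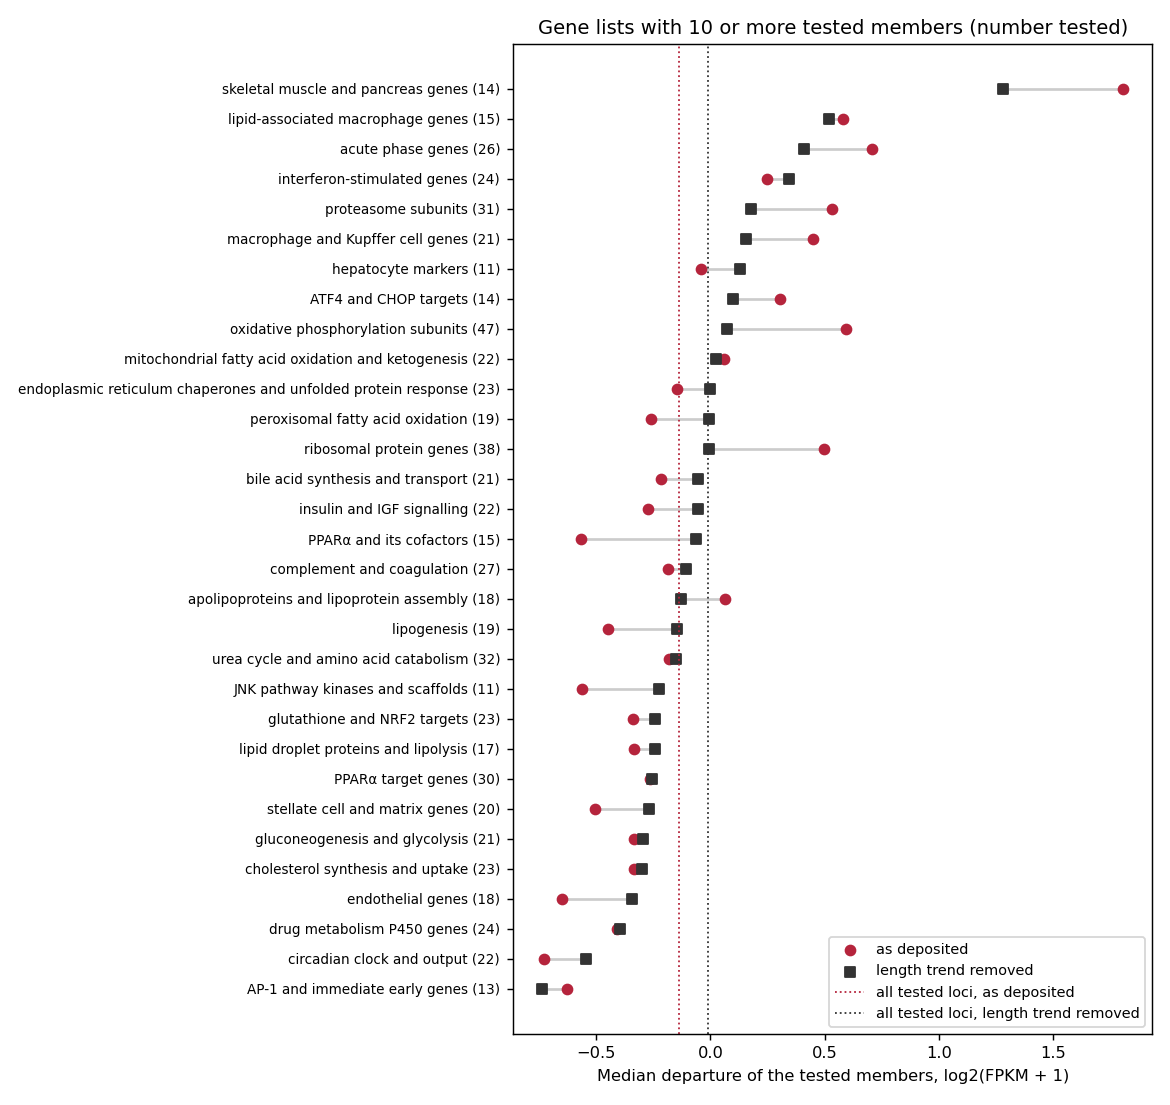
Median high fat departure, log2(FPKM + 1), of each gene list with 10 or more tested members, as deposited (circles) and with the length trend removed (squares). The number tested is in brackets, and dotted lines mark the medians of all tested loci, -0.14 and -0.01. Ribosomal protein genes move from 0.50 to -0.01, while the AP-1 genes stay low at -0.63 and -0.74.

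Among the lists not yet described, 6 of 21 gluconeogenesis and glycolysis genes departed downward and 1 upward, and 2 and 0 with the trend removed. Of 14 ATF4 and CHOP targets 1 departed upward and 0 downward, with and without the trend. Of 6 cholangiocyte genes 1 departed upward and 2 downward, and 1 and 3 with the trend removed. The 11 hepatocyte markers had 2 positive and 1 negative calls, and 0 with the trend removed. The 6 lymphocyte and granulocyte genes had 0 calls by limma as deposited and 1 negative call with the trend removed. The erythroid genes had 0 of 4 and 2 of 3, both negative.

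Scaling changed the sign of the median for 3 of these lists. With quantile normalization the median departure was -0.18 for the 18 apolipoprotein genes (0.06 as deposited, 5 positive and 3 negative calls, and 0 and 2 with a median of -0.13 with the trend removed), -0.13 for mitochondrial fatty acid oxidation (0.06) and -0.29 for the 11 hepatocyte markers (-0.04, and 0.10 with size factors). For the JNK cascade, the AP-1 genes, PPARα and its cofactors, the clock, P450 and stellate lists, 0 positive calls were made under either scaling. With size factors the endothelial list had 1 positive and 10 negative calls, the cholesterol list 1 and 6, the insulin list 1 and 8 and the lipid droplet list 3 and 4. The split of calls moved with size factors toward positive for mitochondrial and peroxisomal oxidation, complement and the urea cycle list, and PPARα targets gave 4 positive and 6 negative calls with size factors and 0 and 11 with quantile normalization.

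A histone locus was also among the 16 shared cases. Hist1h2ba read 0, 0 and 0 FPKM in the control livers, 4.2, 10.4 and 8.61 in Jnk1, 13.1, 16.0 and 16.2 in Jnk2 and 15.4, 17.5 and 16.6 in Jnk1Jnk2. Hist1h2ba was listed at 0 in the 3 control libraries, so no fold is given, and the knockout groups lay between 4.2 and 17.5 FPKM. Its departure of -2.93 ± 0.44 (adjusted p = 0.000255) was -6.07 with a pseudocount of 0.1, and histone genes of this cluster are similar in sequence.

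The same contrast was computed on chow. On chow, 170 of 10562 loci (1.61%) departed from additivity, 78 upward (0.738%) and 92 downward (0.871%), and 314 (3.08%) with the length trend removed, 178 upward (1.75%) and 136 downward (1.33%). This count was 78 and 82 without Jnk1Jnk2 replicates 1 and 2, 111 and 73 without Jnk2 replicates 2 and 3, and 107 and 90 without control replicates 1 and 2, all of chow. The difference between the high fat and chow departures was itself tested and called at 1735 loci (16.4%), 679 with a higher (6.43%) and 1056 with a lower (10.0%) high fat departure. With the length trend removed it was called at 350 loci (3.43%), 176 higher (1.73%) and 174 lower (1.71%). Leaving out a library gave between 886 and 2105 calls as deposited. The count was 886 without high fat control replicate 2, 955 and 1147 without high fat Jnk1 replicates 3 and 1, and 981 without high fat Jnk1Jnk2 replicate 2. It was 917 without chow Jnk2 replicate 3, 948 without chow Jnk1Jnk2 replicate 2, 992 without chow control replicate 3 and 1067 without chow Jnk1 replicate 1.

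Of the 58 genes described above, 40 differed between diets, 26 with a lower and 14 with a higher departure on high fat, and 21 of them also with the length trend removed. Most of the 58 were picked from called high fat departures, which favours a difference from chow. Their count is therefore not comparable with the share of all tested loci. Cyp2f2 departed by 0.63 ± 0.18 on chow, short of a call (adjusted p = 0.0752), against -1.57 ± 0.18 on high fat. Hamp departed by -1.84 ± 0.55 on chow (adjusted p = 0.108) against 2.42 ± 0.55 on high fat. Ppara departed by -0.34 ± 0.16 on chow (adjusted p = 0.347) against -1.31 ± 0.16, and Palld by 0.09 ± 0.27 (adjusted p = 0.935) against -2.01 ± 0.27. Acnat1 was called in opposite directions, at 0.89 ± 0.16 on chow (adjusted p = 0.00821) and -0.61 ± 0.16 on high fat. Other genes gave similar values in both diets: Por departed by -1.14 ± 0.22 on chow (adjusted p = 0.00924) and Per2 by -1.76 ± 0.40 (adjusted p = 0.0272), and neither passed the test of a difference between diets (adjusted p = 0.848 and 0.987). For Jun the chow departure was -0.49 ± 0.39 (adjusted p = 0.649) and the difference between diets -1.24 ± 0.55 (adjusted p = 0.117), which was not called either.

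**Figure D5:**
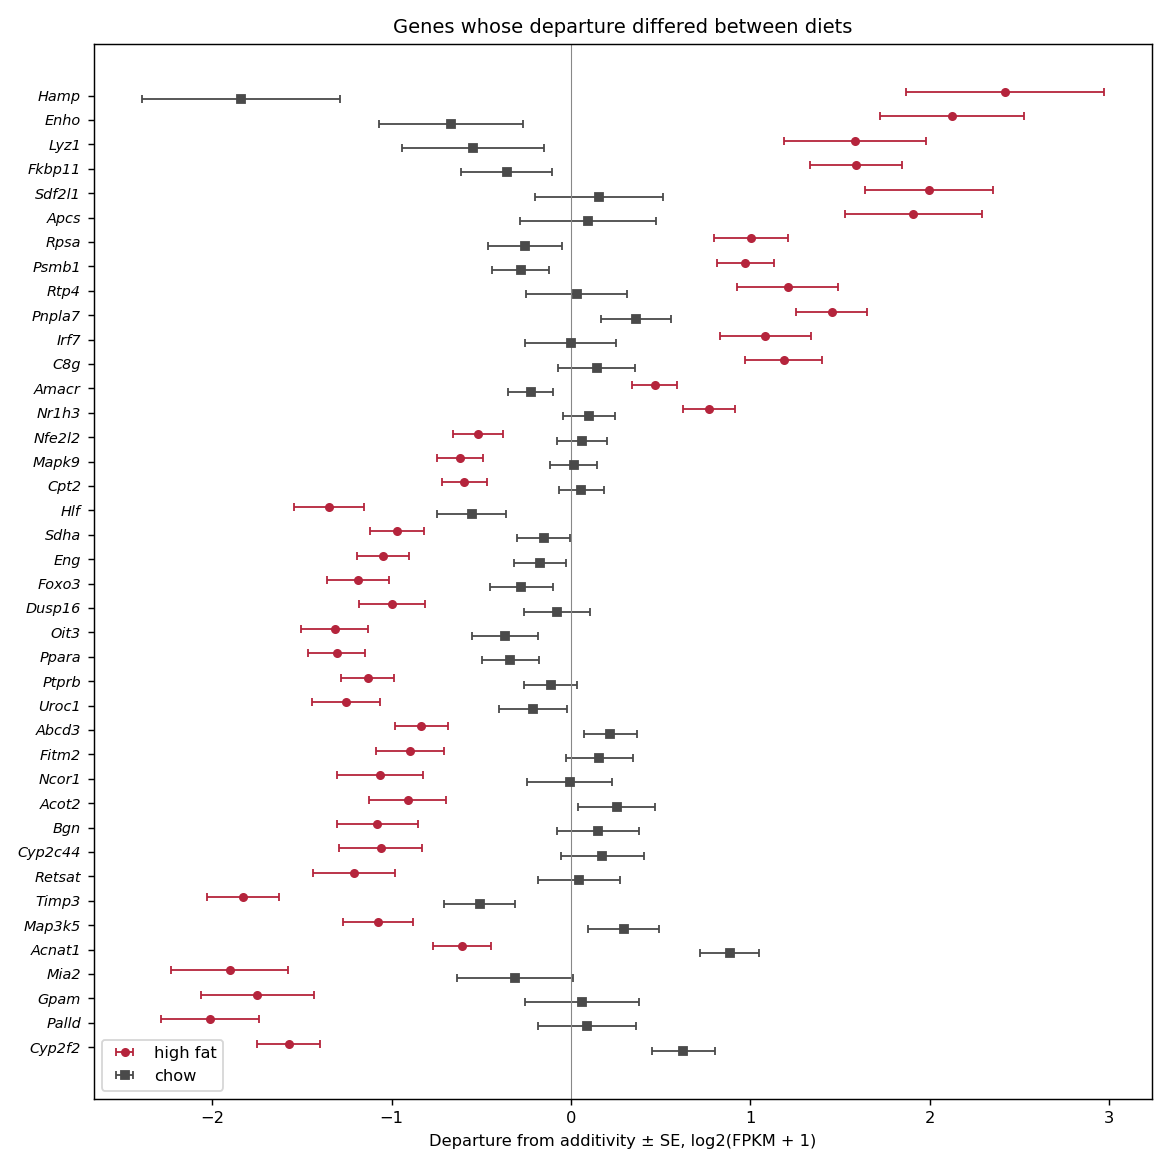
Departure from additivity ± SE, log2(FPKM + 1), on high fat (circles) and chow (squares) for the 40 described genes whose departure differed between diets. Each group has 3 libraries. The high fat values run from -2.01 for Palld to 2.42 for Hamp, and most chow values lie nearer 0. Most of these genes were picked from called high fat departures, which favours this.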

How the data were processed

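Liver RNA-seq libraries were grouped by title. The submitters' processing notes name TopHat, Cufflinks, Cuffdiff and the mm10 build, without versions. The authors deposited FPKM for 31027 Cufflinks loci with gene names, of which 571 carry several names. No count model was applied to these FPKM. Relative depth was read from the commonest ratio between libraries among loci under 0.2 FPKM, where values stand for single fragments.

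From the deposited FPKM, log2(FPKM + 1) was fitted with limma 3.58.1 (R 4.3.3), with 1 mean for each of the 8 groups of all 24 libraries, a trended and robust prior, and loci with a mean of at least 1 FPKM. A pseudocount of 1 understates the change of low genes. Length came from the longest basic GENCODE transcript matched by name (96.5% of tested loci), and its trend was removed with a loess of span 0.5. On simulated departures of 1 and of 2 at 100 loci each, limma recovered 80% and 97%, and called 11 of the unchanged loci among 10562. The simulated noise was independent between loci, and the simulated Jnk1Jnk2 libraries lacked the length trend of the real ones. These rates therefore do not say how many calls the length trend makes in the real data. Locus starts were read as counted from 0, since 11040 of 20344 loci matched to RefSeq began 1 base before its start, and are printed counted from 1.

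Named genes were Mapk8, Mapk9, Fgf21 and Ppara, and others from loci called as deposited and with the length trend removed. Loci that also held with each high fat library left out gave the 15 largest departures of each sign and the 5 largest of each shape. Up to 4 of each of the 34 lists were added by smallest limma p, without that left-out condition. These were 113 in all, of which 58 are described. The members and lists were chosen with earlier results of these data known, so no list is independent evidence of its direction. Exact zeros at a mean of 10 FPKM or more may be failed estimates (89 tested loci), and no such locus was named by size. Alternatives covered pseudocount, filter, scaling, length and GC trends, array weights, a replicate block and left-out libraries.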

Additional observations from a re-analysis of the deposited data

Results flagged for a closer look

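Departures on high fat and on chow were compared by testing the difference between them with limma over all tested loci, with Benjamini-Hochberg adjustment and 3 libraries per group. Of the described genes, 40 passed, with adjusted p from 0.000139 to 0.0497 by limma, and each value is the high fat departure minus the chow departure ± SE on the log2(FPKM + 1) scale. Most described genes were picked from called high fat departures, which favours such a difference.

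Among genes of PPARα, its partners and fatty acid metabolism, the high fat departure was the lower one for Ppara (-0.97 ± 0.22), Ncor1 (-1.06 ± 0.34), Retsat (-1.26 ± 0.32), Acot2 (-1.16 ± 0.30), Cpt2 (-0.65 ± 0.18), Abcd3 (-1.05 ± 0.21), Fitm2 (-1.06 ± 0.26), Gpam (-1.81 ± 0.45) and Acnat1 (-1.49 ± 0.23). Among genes of kinases, secretion and other hepatocyte functions, the high fat departure was the lower one for Map3k5 (-1.37 ± 0.28), Dusp16 (-0.92 ± 0.26), Mapk9 (-0.63 ± 0.18), Foxo3 (-0.91 ± 0.25), Mia2 (-1.59 ± 0.46), Cyp2f2 (-2.20 ± 0.25), Cyp2c44 (-1.24 ± 0.33), Hlf (-0.80 ± 0.27), Uroc1 (-1.04 ± 0.27), Nfe2l2 (-0.58 ± 0.20) and Sdha (-0.82 ± 0.21). Among genes described beside the endothelial and stellate lists, the high fat departure was the lower one for Eng (-0.88 ± 0.21), Oit3 (-0.95 ± 0.26), Ptprb (-1.02 ± 0.21), Bgn (-1.23 ± 0.32), Timp3 (-1.32 ± 0.28) and Palld (-2.10 ± 0.39). Which cells of the bulk tissue these values come from was not tested. 

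Among plasma and secretory path genes, it was the higher one for Hamp (4.26 ± 0.78), Enho (2.79 ± 0.57), Fkbp11 (1.95 ± 0.36), Sdf2l1 (1.84 ± 0.51), Apcs (1.81 ± 0.54) and C8g (1.04 ± 0.30). Among interferon and macrophage genes, it was the higher one for Lyz1 (2.13 ± 0.56), Rtp4 (1.18 ± 0.40) and Irf7 (1.09 ± 0.36). Among lipid, ribosome and proteasome genes, it was the higher one for Pnpla7 (1.09 ± 0.28), Amacr (0.69 ± 0.18), Nr1h3 (0.67 ± 0.21), Rpsa (1.26 ± 0.29) and Psmb1 (1.25 ± 0.22). 

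With the length trend removed from every library, 21 of the 40 differences passed. Those that did not were Mia2, Map3k5, Ncor1, Fitm2, Uroc1, Ptprb, Oit3, Dusp16, Foxo3, Hlf, Mapk9, Nfe2l2, Nr1h3, C8g, Irf7, Rtp4, Apcs, Sdf2l1 and Lyz1.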

How the results depend on the processing

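For the high fat departure, 3889 loci were called as deposited, 1873 with the length trend removed, 1840 with length and GC trends removed and 1865 with the replicate block and the length trend removed, and leaving out 1 library gave 2808 to 3951 calls. The other alternatives gave between 2818 (5 FPKM filter) and 4137 (replicate block) calls. With the length trend removed, leaving out 1 library gave 1129 to 1904 calls, chosen after seeing the data as was the sorting into shapes with that trend removed. Chow counts were 170 as deposited, 104 without a filter, 314 with the length trend removed, 355 with length and GC trends removed, 433 with array weights, 278 with the replicate block and the length trend removed and 273 from chow libraries only, and 73 to 196 with 1 library left out. Between diets, 1735 loci were called, 957 without a filter, 350 with the length trend removed, 429 with length and GC trends removed and 455 with the replicate block and the length trend removed, and 886 to 2105 with 1 library left out. Why these alternatives moved the counts was not tested.

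Double only loci numbered 285 at a size of 1 and 461 with the length trend removed. Single only loci numbered 555 at a size of 0.3 and 47 at a size of 1. Opposite single differences numbered 49 at 0.3, 0 at 1 and 0 with the length trend removed, and shared ones 54 at 0.3 and 3 at 1. The Mapk8 departure turned to 0.0799 with the length trend removed and with the replicate block and the length trend removed. Fgf21 passed with size factors (adjusted p = 0.0367), a 5 FPKM filter (0.0468), array weights (0.00538) and the replicate block (0.04). Mapk8 passed with pseudocounts of 0.1 (0.0306) and 0.5 (0.047) and array weights (0.0403). Hamp and Acot3 were not called with the replicate block and the length trend removed (0.0585 and 0.0603).

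Whether replicate numbers pair the samples is not known. Across loci, deviations of same-numbered high fat libraries correlated at -0.166 to 0.207, and those of differently numbered ones at -0.233 to 0.250. Deviations from the mean of 3 libraries depend on each other, so these correlations cannot exclude pairing. Of the 58 genes described, 42 kept their call with the length trend removed and each high fat library left out in turn, and Acot3, Apcs, Dusp16, Fgf21, Hamp, Insr, Lss, Lyz1, Map3k5, Mapk8, Mapk9, Ncor1, Nfe2l2, Per2, Rxra and Zbtb16 did not. Depth is known only as a ratio between libraries, and 3 libraries per group limit every comparison.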
